A study of Rattus norvegicus with 18 samples.

Results

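The 9 genes described here are made by maturing red cells: Alas2, Fech and Slc25a37 of heme synthesis and its iron supply, Slc4a1 and Epb42 of the red cell membrane, the globin chaperone Ahsp, the embryonic globin Hbe1, the transcription factor Klf1 and the enzyme Bpgm. They were chosen by name, and their probes were found through the RefSeq accession that the array files give for each spot. All 9 were measured and passed the filter on dim probes, out of 13652 named genes tested. Ahsp and Bpgm had 2 probes each and the others 1, and each gene is given by its brighter probe.

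Whole blood was drawn from the venous sinus of the eye of male Brown Norway (BN) and Sprague Dawley (SD) rats at the end of treatment with procainamide, an antiarrhythmic drug known for provoking a lupus-like autoimmunity. The groups were BN rats given 40 mg/kg procainamide (4 arrays), BN rats given sterile water (4 arrays), SD rats given 40 mg/kg procainamide (5 arrays) and SD rats given sterile water (5 arrays). Each sample was labelled with Cy5 and hybridised on a 2-colour Agilent rat array against Cy3-labelled RNA that is, by the labels, control replicate 1 of the same strain, so a log2 ratio of 0 means the level of that control if the labels are right. Neither the length of treatment nor the rats' age is given in the sources used here, nor does any label state that the samples of a group were drawn from different rats. The p-values therefore reflect how far these samples lay apart, which may in part be technical.

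Red cells eject their nucleus and stop making new RNA, and the reticulocyte, the youngest red cell in blood, still carries transcripts left from the marrow. Heme is made from glycine and succinyl-CoA by a chain of enzymes that starts in red cells with Alas2 and ends with Fech, which puts iron into protoporphyrin. The iron enters the mitochondrion through mitoferrin, the product of Slc25a37. In whole blood, transcripts of this kind measure mainly how many young red cells the sample holds and how much RNA each still carries, and fewer cells and less RNA per cell cannot be told apart here.

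Erythroid promoters are commonly bound by GATA1 at a GATAA core and by Klf1 at a CCACACCC box. Windows of 250 bases before the transcript start were matched by symbol for 6 of the 9 genes in RefSeq's annotation of the GRCr8 assembly. The windows of Alas2 and Fech are shown because these heme enzymes were lower on every treated SD array than on any SD control. That of Klf1 is shown because it passed the test in BN rats, and that of Hbe1 because its level differed between the strains. Bpgm was also lower on every treated SD array, and its window, without GATAA, is not printed. Whether the motif goes with any of these differences was not tested. Capitals mark GATAA or its reverse complement TTATC.
Alas2, chrX:22895200-22895449 (plus strand): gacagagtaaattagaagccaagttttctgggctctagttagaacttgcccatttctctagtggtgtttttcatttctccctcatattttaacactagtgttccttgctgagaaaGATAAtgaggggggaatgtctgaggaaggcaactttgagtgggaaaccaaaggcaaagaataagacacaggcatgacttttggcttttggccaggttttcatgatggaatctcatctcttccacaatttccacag
Fech, chr18:60248526-60248775 (minus strand): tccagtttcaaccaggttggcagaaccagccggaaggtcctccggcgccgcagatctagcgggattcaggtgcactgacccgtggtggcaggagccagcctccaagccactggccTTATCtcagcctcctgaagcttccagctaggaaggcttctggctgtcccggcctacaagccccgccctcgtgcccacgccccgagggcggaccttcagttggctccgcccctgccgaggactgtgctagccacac
Klf1, chr19:40158652-40158901 (minus strand): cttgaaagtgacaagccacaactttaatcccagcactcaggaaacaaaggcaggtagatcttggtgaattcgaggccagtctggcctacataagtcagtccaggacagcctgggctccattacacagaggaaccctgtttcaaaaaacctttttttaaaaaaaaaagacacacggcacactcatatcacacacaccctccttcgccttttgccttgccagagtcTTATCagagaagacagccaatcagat
Hbe1, chr1:167696281-167696530 (minus strand): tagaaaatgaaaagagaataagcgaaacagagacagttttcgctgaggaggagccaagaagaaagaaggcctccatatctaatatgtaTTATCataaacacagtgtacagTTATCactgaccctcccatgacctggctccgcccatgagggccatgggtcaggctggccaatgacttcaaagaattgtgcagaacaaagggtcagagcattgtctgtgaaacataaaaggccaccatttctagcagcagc
GATAA was found, on either strand, in these 4 windows and in neither of the windows of Epb42 and Bpgm, and 23.5% of all 33469 RefSeq promoter windows of this length hold it. In Alas2 it lay on the plus strand 135 to 131 bases before the start, and in Fech on the opposite strand of the gene at the same distance. The Hbe1 window held it at 2 positions. CCACACCC (or GGGTGTGG), found in 2.84% of all windows, was in none of the 6. The annotated starts of Alas2 and Bpgm used for these windows lie 4800 and 468 bases inside the annotated gene, and that of Hbe1 lies 175811 bases inside a gene span that covers most of its cluster, so other starts of these genes were not looked at.

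The BN arrays varied most in these genes before any comparison, and 1 of them stood apart. The array of BN control replicate 1 carries the same RNA in both channels by its labels, yet the ratios of the 9 genes on it ran between 0.16 and 2.63. On the matching SD array the same genes lay between -1.08 and -0.02. On the array of BN control 1, Ahsp had a log2 ratio of 2.63, against -3.07, -1.32 and -2.32 on BN control arrays 2, 3 and 4. The spread of log2 ratios over all probes on the self-compared BN array (SD 0.41) lay within that of the other BN control arrays (0.33 to 0.46), and the matching SD array (0.25) likewise lay within the range of the other SD controls (0.20 to 0.29). The Cy3 RNA of the BN arrays, and likewise that of the SD arrays, may thus be another sample than labelled. A ratio is then relative to that sample. Since BN control 1 stood apart, each BN result below is also given without this array where that changes the result.

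**Figure D1:**
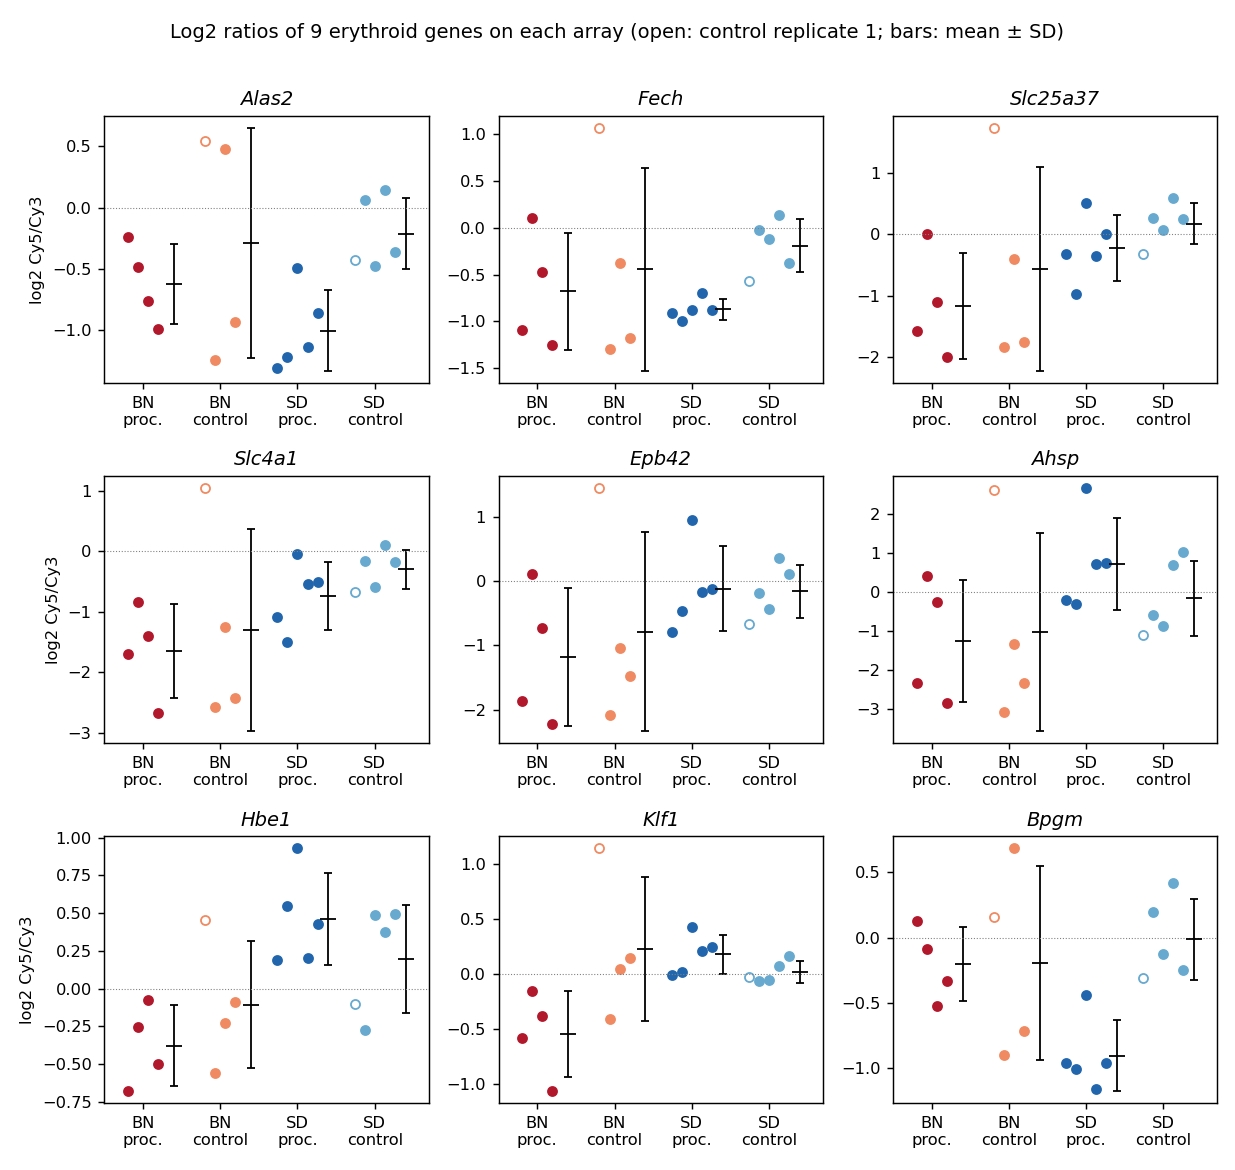
Log2 Cy5/Cy3 ratio (vertical axes, scaled separately for each gene) of the 9 genes on each of the 18 arrays, in BN procainamide, BN control, SD procainamide and SD control rats. Each point is an array, open points are the arrays of control replicate 1, and bars give mean ± SD. BN control 1 is the highest of the BN arrays for every gene but Bpgm, and for Alas2, Fech and Bpgm all 5 SD procainamide arrays lie below the 5 SD control arrays.

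After procainamide, 1 of the 9 genes passed the test in BN rats and none did in SD rats. In BN rats Klf1 fell 1.71-fold and all 9 estimates were negative, with a median log2 difference of -0.33 against -0.02 over all named genes. Without BN control 1, 6 of the 9 estimates turned positive (0.11 for Bpgm to 1.00 for Ahsp). Alas2 and Hbe1 came close to 0 (-0.05 and -0.09), and Klf1 stayed at -0.47. In SD rats Alas2, Fech and Bpgm were lower on every treated array than on any control array, by 1.73, 1.60 and 1.86-fold, without passing the test over all genes. By limma with Benjamini-Hochberg adjustment over all probes, 22.8% of the named genes were called in the BN comparison, 13.8% as lower, so 1 of 9 is no more than the background. In the SD comparison 3.18% of the named genes were called, and 4.53% had all treated arrays below all controls. At an unadjusted limma p under 0.05, 1 of the 9 genes passed in BN rats and 2 in SD rats, against 4856 and 2523 of all 13652 named genes.

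**Figure D2:**
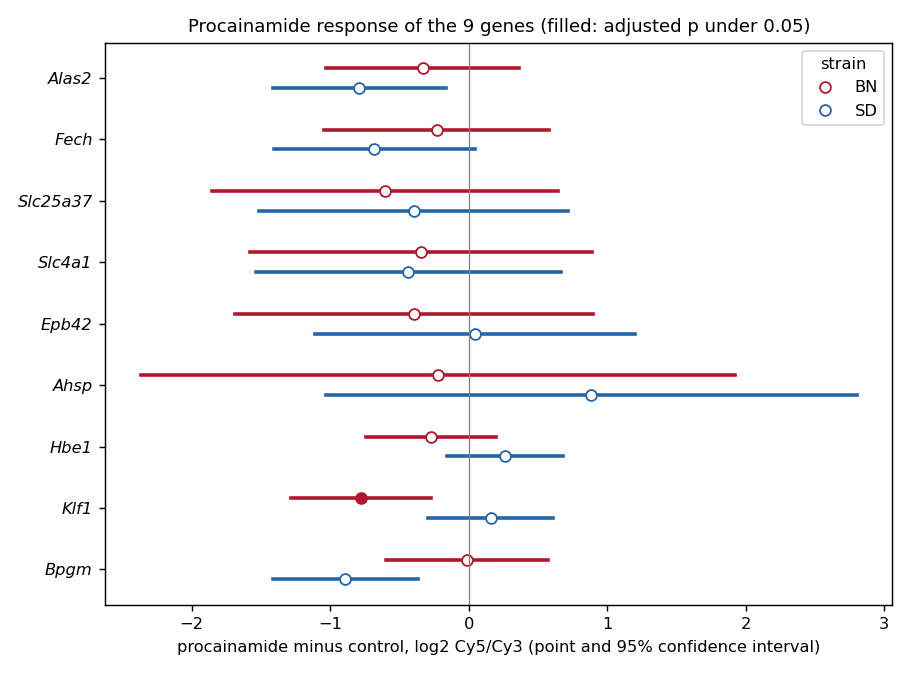
Difference in log2 Cy5/Cy3 between procainamide and control arrays (horizontal axis) for each of the 9 genes, with its 95% confidence interval, in BN rats (red, 4 and 4 arrays) and SD rats (blue, 5 and 5 arrays). The only filled point, an adjusted p under 0.05, is Klf1 in BN rats. The Ahsp intervals are the widest of the 9.

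Alas2 encodes the red cell form of the enzyme that starts heme synthesis. Its log2 ratios were -0.24, -0.48, -0.76 and -0.99 in BN procainamide rats, against 0.55, -1.25, 0.48 and -0.93 in BN controls. In SD rats they were -1.30, -1.22, -0.49, -1.13 and -0.86 with procainamide, against -0.43, 0.06, -0.47, 0.15 and -0.37 in controls. The BN controls thus bracketed the treated BN arrays, while the highest treated SD array (replicate 3) fell just under the lowest SD control. The procainamide minus control difference was -0.33 ± 0.33 in BN rats (SE, limma adjusted p = 0.514) and -0.79 ± 0.30 in SD rats (limma adjusted p = 0.171). The BN value was -0.05 without BN control 1. The 3 treated SD arrays on the same slide as the SD controls differed from them by -0.79 as well, with no overlap (exact 2-sided permutation p = 0.0179, the smallest that 3 against 5 arrays allow). Since all 5 treated arrays lay below every control, the lack of overlap for these 3 was given in advance. This p is therefore no separate test.

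Fech encodes ferrochelatase, the last enzyme of the pathway. In BN rats its ratios were -1.09, 0.11, -0.47 and -1.26 with procainamide, against 1.06, -1.29, -0.37 and -1.18 in controls. The BN groups overlapped over their whole range. In SD rats the ratios were -0.90, -0.997, -0.88, -0.70 and -0.88 with procainamide, against -0.57, -0.03, -0.12, 0.14 and -0.38 in controls. The treated SD arrays lay close together, with an SD of 0.11 that exceeded that of only 21.0% of the named genes. The BN difference was -0.23 ± 0.38 (SE, limma adjusted p = 0.714), and 0.27 without BN control 1. The SD difference was -0.68 ± 0.34 (limma adjusted p = 0.33), and -0.74 within the shared slide (exact permutation p = 0.0357).

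Slc25a37, the mitochondrial iron importer, had ratios of -2.00 to 0.01 in BN procainamide rats, against -1.83 to 1.73 in BN controls. In SD rats it had -0.96 to 0.51 with procainamide, against -0.32 to 0.59 in controls. Both pairs of groups overlapped. Its differences were -0.60 ± 0.59 in BN rats and -0.40 ± 0.53 in SD rats (SE, limma adjusted p = 0.507 and 0.763), and the BN value turned to 0.16 without BN control 1.

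Of the 9 genes on the heme synthesis list, which include Alas2 and Fech, none passed the test in either strain. The list's median was -0.16 in BN rats and 0.15 in SD rats. In SD rats Alas2 and Fech had the lowest estimates of the list. Of the 13 iron supply genes measured, 2 were higher and 1 was lower in BN rats, and none passed in SD rats. Of all named genes, 22.8% were called in BN rats in either direction, so this list did not stand out. Ireb2, which encodes an iron-sensing RNA-binding protein, rose by 0.39 ± 0.08 and Slc25a28, a mitochondrial iron importer used outside the red cell lineage, rose by 0.54 ± 0.11 (SE, limma adjusted p = 0.00239 and 0.00276). Slc11a2, which moves iron out of endosomes, fell by 0.56 ± 0.15 (SE, limma adjusted p = 0.0143), a call lost without BN procainamide 4 (adjusted p = 0.0553).

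Neither membrane gene passed the test in either strain. Slc4a1 encodes band 3, the anion exchanger that anchors the membrane to its skeleton. Its ratios were -1.69, -0.83, -1.39 and -2.68 in BN procainamide rats, against 1.04, -2.56, -1.25 and -2.43 in BN controls. In SD rats they were -1.09, -1.50, -0.04, -0.53 and -0.51 with procainamide, against -0.67, -0.16, -0.60, 0.11 and -0.17 in controls. Apart from BN control 1, every BN array of either treatment lay below 0. The differences were -0.35 ± 0.59 in BN rats and -0.44 ± 0.52 in SD rats (SE, limma adjusted p = 0.72 and 0.733), and 0.43 in BN rats without BN control 1.

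Epb42 encodes protein 4.2, which links band 3 to the skeleton. Its ratios ran between -2.23 and 0.10 in BN procainamide rats, against -2.07 to 1.44 in BN controls. In SD rats they ran between -0.79 and 0.96 with procainamide, against -0.66 to 0.36 in controls. The BN difference was -0.39 ± 0.61 and the SD difference 0.05 ± 0.55 (SE, limma adjusted p = 0.694 and 0.981). The BN value turned to 0.35 without BN control 1. Of the 13 membrane and cytoskeleton genes measured out of 19 listed, Xk was the only one called, in BN rats, where it fell by 0.45 ± 0.10 (SE, limma adjusted p = 0.00516). Its product carries the Kx blood group antigen. None was called in SD rats. Of all named genes, 13.8% were called lower in BN rats.

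Ahsp binds free alpha globin until it is paired with beta globin, and it was the most variable of the 9 genes in every group. Its ratios were -2.31, 0.41, -0.24 and -2.83 in BN procainamide rats, against 2.63, -3.07, -1.32 and -2.32 in BN controls. In SD rats they were -0.20, -0.30, 2.66, 0.73 and 0.74 with procainamide, against -1.08, -0.57, -0.86, 0.70 and 1.03 in controls. Both treated groups overlapped their controls. The within-group SD in BN controls was 2.54, above that of 99.98% of the named genes, whose median SD was 0.18. The differences were -0.22 ± 1.02 in BN rats and 0.88 ± 0.91 in SD rats (SE, limma adjusted p = 0.902 and 0.682), and the BN value turned to 1.00 without BN control 1.

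The 2 channels of Ahsp moved against each other. Over the BN arrays its Cy5 signal ranged from 29346 to 213289 intensity units and its Cy3 signal, which by label came from a single RNA, from 22047 to 135516, a 6.15-fold range. The sum of both channels varied only 1.69-fold. The 3 BN arrays of highest Cy5, control 1 and procainamide 2 and 3, had the 3 lowest Cy3 signals. Among SD arrays procainamide 3 had the highest Cy5 (113345) and the lowest Cy3 (11063). The ratio of Ahsp thus varied more than either of its channels. Among the other genes, Slc4a1's Cy3 signal varied 3.11-fold over the BN arrays, that of Slc25a37 2.32-fold and that of Hbe1 2.29-fold. The rest lay between 1.43-fold (Klf1) and 1.80-fold (Bpgm), with Alas2 at 1.65-fold and Fech at 1.67-fold.

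**Figure D3:**
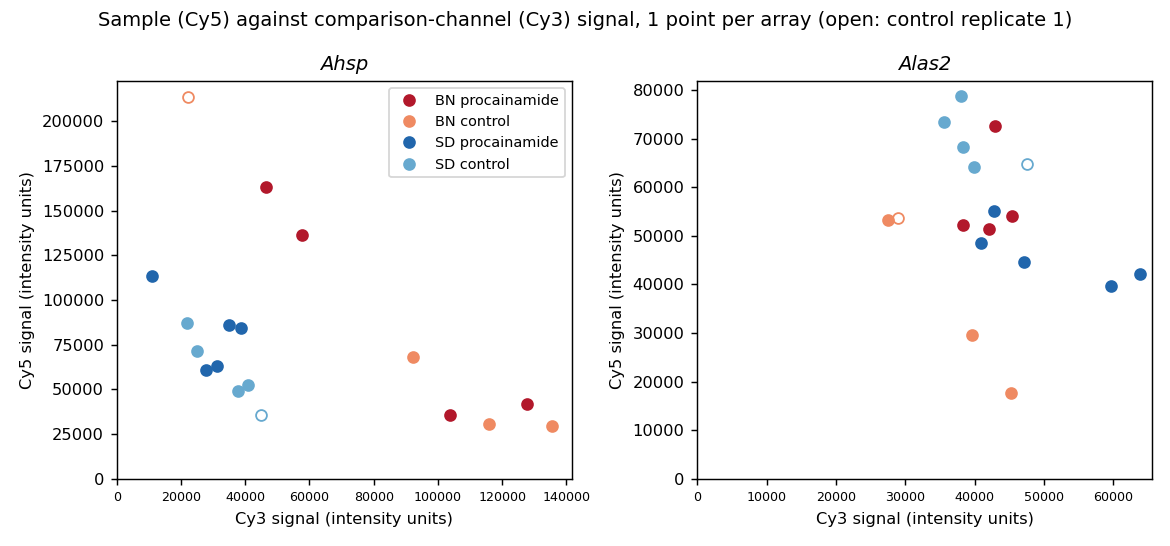
Cy5 signal of the sample (vertical axes) against Cy3 signal of the comparison RNA (horizontal axes), both in intensity units before background correction, for Ahsp (left) and Alas2 (right) on the 18 arrays. Each point is an array and open points are control replicate 1. For Ahsp the BN points run from high Cy5 with low Cy3 to low Cy5 with high Cy3.

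The globin genes themselves were on the arrays too. The adult globin probes Hbb, Hbb-b1, Hbb-bs, Hba-a1 and Hba-a3 had BN differences of -0.77 to -0.55 and SD differences of -1.05 to -0.84 on the log2 scale. None passed the test (limma adjusted p from 0.171 to 0.282 in BN rats and from 0.129 to 0.239 in SD rats), and none of the 10 genes measured of 15 on the globin list did in either strain. The list's median was -0.56 in BN rats and -0.87 in SD rats. The copies within the alpha family, and those within the beta family, are near-identical, and their probes may not separate them.

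Hbe1, the embryonic epsilon globin that is normally replaced before birth, was the only one of the 9 genes whose untreated BN and SD arrays did not overlap. Its Cy5 signal was 135, 291, 277 and 192 units in BN procainamide rats, against 1859, 2760, 2411, 1110 and 1215 units in SD procainamide rats. In untreated rats it was 202, 108, 92 and 131 units in BN rats, against 1369, 1078, 2505, 1597 and 1756 units in SD rats. No BN array of either treatment reached the lowest SD array. The signal was well above background on all SD arrays and all treated BN arrays, but on only 2 of the 4 BN control arrays. Untreated BN rats had a Cy5 level 7.09-fold lower than untreated SD rats (log2 difference -2.83 ± 0.28, SE, limma adjusted p = 3.05e-06); all BN controls lay below all SD controls, as for 19.8% of the named genes. With procainamide the BN minus SD difference was -3.06 (limma adjusted p = 1.73e-06), where 19% of the named genes were called. The Cy3 channel, labelled as control RNA of the same strain, read 101 to 230 units on BN arrays against 923 to 1389 on SD arrays.

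Most BN and SD arrays lay on different slides, and 1 slide held both the 4 BN controls and SD procainamide replicates 4 and 5. On that slide Hbe1 was 8.02-fold lower in the BN control rats than in the treated SD rats, with a highest BN level of 8.30 and a lowest SD level of 10.37 on the log2 scale. Since 2 of the 4 BN controls were not well above background, neither this fold nor the one for the untreated rats is exact. The Hbe1 probe was not checked against the other globin genes, so whether it reads epsilon globin alone was not tested. Procainamide did not move it past the threshold: its differences were -0.27 ± 0.22 in BN rats and 0.26 ± 0.20 in SD rats (SE, limma adjusted p = 0.416 and 0.55). The BN value was -0.09 without BN control 1.

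**Figure D4:**
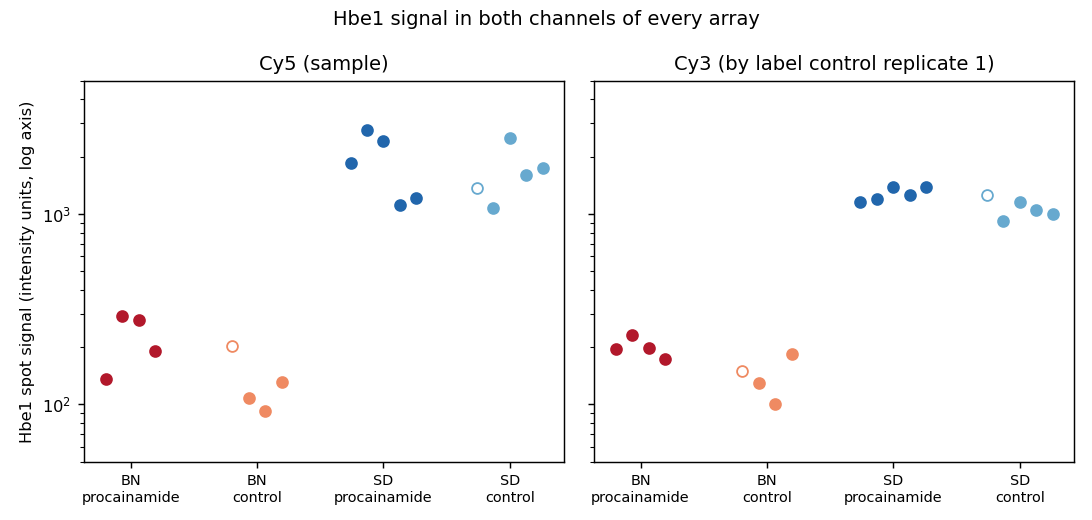
Hbe1 spot signal before background correction (vertical log axis, intensity units) in the Cy5 channel of the sample (left) and the Cy3 channel, by label the strain's control RNA (right), for every array of the 4 groups. Each point is an array and open points are control replicate 1. All BN points lie below all SD points in both channels.

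Of the other 8 genes, 2 more differed between untreated BN and SD rats in Cy5 level, where 36.8% of the named genes were called. Fech was 1.76-fold lower and Klf1 1.50-fold higher in BN controls (limma adjusted p = 0.0437 and 0.0435), with overlapping groups. On the slide shared by the strains, BN controls and treated SD rats differed by -0.07 for Fech and 0.25 for Klf1. Without BN control 1 Fech's difference widened to -1.23 and Klf1's shrank to 0.31, no longer past the threshold (limma adjusted p = 0.169). With each of the 9 control arrays left out in turn, Fech passed in 2 cases and Klf1 in 3. Without BN control 1 Slc4a1 and Alas2 also came out lower in BN controls, by 1.12 and 0.70 on the log2 scale (differences of -1.12 and -0.70, limma adjusted p = 0.00407 and 0.0121), and Alas2 passed without BN control 3 too (adjusted p = 0.0405). Slide and strain cannot be told apart for the untreated groups.

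Klf1 encodes the erythroid transcription factor that switches on the adult beta globin gene and many red cell genes. Its ratios were -0.58, -0.15, -0.38 and -1.06 in BN procainamide rats, against 1.14, -0.41, 0.05 and 0.14 in BN controls. The highest treated array (-0.15) lay above the lowest control (-0.41), so the groups overlapped. In SD rats the ratios were -0.01, 0.02, 0.43, 0.21 and 0.25 with procainamide, against -0.02, -0.07, -0.05, 0.08 and 0.16 in controls. Klf1 was 0.77 ± 0.24 lower in treated BN rats (log2 difference -0.77, SE, limma adjusted p = 0.0287) and differed by 0.16 ± 0.21 in SD rats (limma adjusted p = 0.763). The BN call did not hold without BN control 1 (-0.47, limma adjusted p = 0.0703), BN control 4 (adjusted p = 0.0524) or BN procainamide 4 (adjusted p = 0.103). The BN controls and the treated BN rats were on different slides scanned on different days, and slide and treatment cannot be told apart in BN rats. With scan day in the model, which the SD arrays partly share, the difference was -0.69 ± 0.40 (SE, limma adjusted p = 0.522).

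On the list of erythroid transcription factors and erythropoietin signalling, 4 of the 14 measured genes fell in BN rats and none rose, where 13.8% of all named genes were called lower. The list's median was -0.36. None of its genes was called in SD rats, where 3.18% of all named genes were called, and whether the list's share of calls differs between the strains was not tested. Beside Klf1 these were Bcl11a, a repressor of fetal globin genes in human cells that B cells also use, by 0.43 ± 0.11; Stat5b, a signal transducer of cytokine receptors in many blood cells, by 0.47 ± 0.13; and Gfi1b, a repressor active in red cell and platelet precursors, by 0.65 ± 0.22 (SE, limma adjusted p = 0.0106, 0.0134 and 0.0393). Gfi1b no longer passed without BN control 1 (-0.34, limma adjusted p = 0.066), BN control 3, BN procainamide 1 or BN procainamide 4 (adjusted p from 0.06 to 0.116). The Stat5b call was lost with the scanner software's processed log ratio (adjusted p = 0.0858) and with array weights (0.0576), and the Bcl11a call with median centring (0.0715) and with Cy5 alone (0.367). With scan day or brightness as a model term, neither Klf1 nor any of the 7 other genes of these lists that are named as called in BN rats passed, and Stat5b's difference was 0.0021 with scan day. Of the 7 platelet markers measured, 4 also fell in BN rats. The median of the platelet list ran from -0.97 to -0.18 on treated BN arrays, against -0.17 to 0.22 on BN controls. Whether platelet markers varied with these genes from array to array, and their part in the Gfi1b and Klf1 results, was not tested. Neutrophil markers had a list median of -0.24 to 1.04 on treated BN arrays, against -0.58 to 0.04 on BN controls, and 1 of 8 was called higher. Of the monocyte markers 2 of 6 were called higher, and of the general leukocyte markers 1 of 3. No B cell or T cell marker was called in BN rats. Of all named genes, 22.8% were called in BN rats in either direction.

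Bpgm makes bisphosphoglycerate, which lowers the oxygen affinity of hemoglobin. In BN rats its ratios were 0.13, -0.09, -0.52 and -0.33 with procainamide, against 0.16, -0.90, 0.68 and -0.72 in controls. In SD rats they were -0.96, -1.01, -0.44, -1.16 and -0.96 with procainamide, against -0.31, 0.20, -0.12, 0.42 and -0.25 in controls. The treated BN arrays lay inside the range of the BN controls, while all treated SD arrays lay below all SD controls. The differences were -0.01 ± 0.28 in BN rats (SE, limma adjusted p = 0.984) and -0.89 ± 0.25 in SD rats (limma adjusted p = 0.0615). The BN value was 0.11 without BN control 1. The strains' responses differed by 0.88 ± 0.37 (BN minus SD, SE, limma adjusted p = 0.137). With each of the 18 arrays left out in turn it passed in 1 case, without BN control 3 (limma adjusted p from 0.0295 to 0.274). Bpgm's second probe gave -0.99 ± 0.30 in SD rats (limma adjusted p = 0.0797), again with no overlap. For that probe the strains' responses differed by 0.62 ± 0.44 (SE, limma adjusted p = 0.393). In BN rats the probes disagreed on control 3 (0.68 and -0.999) and procainamide 1 (0.13 and -1.19). None of the 15 measured genes of red cell enzymes and late maturation passed the test in either strain.

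The 3 SD genes whose arrays did not overlap all passed the test when the SD arrays were fitted alone, without the more variable BN arrays. They were singled out by the same SD values, so this fit is not an independent test of them. It called 889 of the 13652 named genes, against 434 when the BN arrays were included. In the fit of the SD arrays alone the limma adjusted p was 0.0248 for Alas2, 0.0121 for Fech and 0.0119 for Bpgm. With the slide as a block in the same fit it was 0.0815, 0.034 and 0.0601. No gene of the 9 passed the test of a difference in response between strains, where 10.7% of the named genes did; 2 of the 9, Bpgm and Klf1, had an unadjusted p under 0.05. Klf1 came nearest to the threshold, with -0.93 ± 0.32 (BN minus SD, SE, limma adjusted p = 0.0698). With each of the 18 arrays left out in turn it passed in 1 case, without BN control 2 (limma adjusted p from 0.0193 to 0.149).

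Markers of immature red cells moved differently from each other. Of the 5 measured, Cd36, a fatty acid receptor also found on platelets and monocytes, fell in both strains, by 0.70 ± 0.12 in BN rats and 0.40 ± 0.10 in SD rats (SE, limma adjusted p = 0.000575 and 0.0476). The SD call of Cd36 was lost when any of 9 of the 10 SD arrays was left out (limma adjusted p from 0.05002 to 0.147). It held only without SD control 3 (0.0373). With scan day or brightness as a model term neither strain's call held (limma adjusted p = 0.0871 and 0.0564 in BN rats, 0.17 and 0.0619 in SD rats). The other markers were not called: Epor differed by -0.87 in BN rats and 0.22 in SD rats, and Gata1 by -0.30 and -0.23. Of all named genes, 13.8% were called lower in BN rats, and 3.18% were called in either direction in SD rats. The list's median ran from -1.64 to -0.14 on treated BN arrays, against -0.96 to 1.03 on BN controls, and from -0.29 to -0.04 on treated SD arrays, against -0.28 to 0.05 on SD controls. Platelet markers, of which none was called in SD rats, had medians of -0.55 to -0.26 on treated SD arrays, against -0.22 to 0.16 on SD controls. Whether either bears on the lower Alas2, Fech and Bpgm ratios was not tested.

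Across arrays the 9 genes did not move as a single block. After group means were removed, Slc25a37, Slc4a1, Epb42, Ahsp, Klf1 and Fech formed one set, in which the 15 pairs had Pearson's r of 0.85 to 0.98 and Spearman's rho of 0.65 to 0.98 over the 18 arrays (permutation p at most 0.0051 for r, with labels permuted within groups, and at most 0.0092 adjusted over all 36 pairs). Epb42 and Ahsp were the closest pair, with r = 0.98 and rho = 0.98 (permutation p = 1e-05 for both, the smallest that the permutations can give), and r = 0.97 without the 2 arrays farthest from the median of Epb42. With the 2 farthest arrays left out of each pair, the lowest r of the 15 pairs was 0.62. Bpgm, given by its brighter probe, stood apart from that set in Pearson's r. Its 2 probes disagreed on BN control 3 (0.68 and -0.999) and BN procainamide 1 (0.13 and -1.19). Whether the second probe follows Alas2 or the set was not tested. The brighter Bpgm probe correlated with Alas2 (r = 0.92, rho = 0.82, permutation p = 0.00018 and 0.0042, adjusted p = 0.00059 for r, and r = 0.93 without the 2 farthest arrays). Its 7 other pairs had r of 0.24 to 0.59, none past the threshold for r after adjustment. By Spearman's rho its pair with Slc25a37 did pass (rho = 0.73, adjusted permutation p = 0.017). Over the 10 SD arrays alone these 7 pairs had r of 0.33 to 0.75. Alas2 lay between, with r of 0.80 with Slc4a1 and 0.65 with Klf1. Fech belonged to the set through the BN arrays: its r with Slc4a1, Ahsp and Klf1 was 0.98, 0.99 and 0.92 over the 8 BN arrays and 0.49, 0.23 and 0.07 over the 10 SD arrays.

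**Figure D5:**
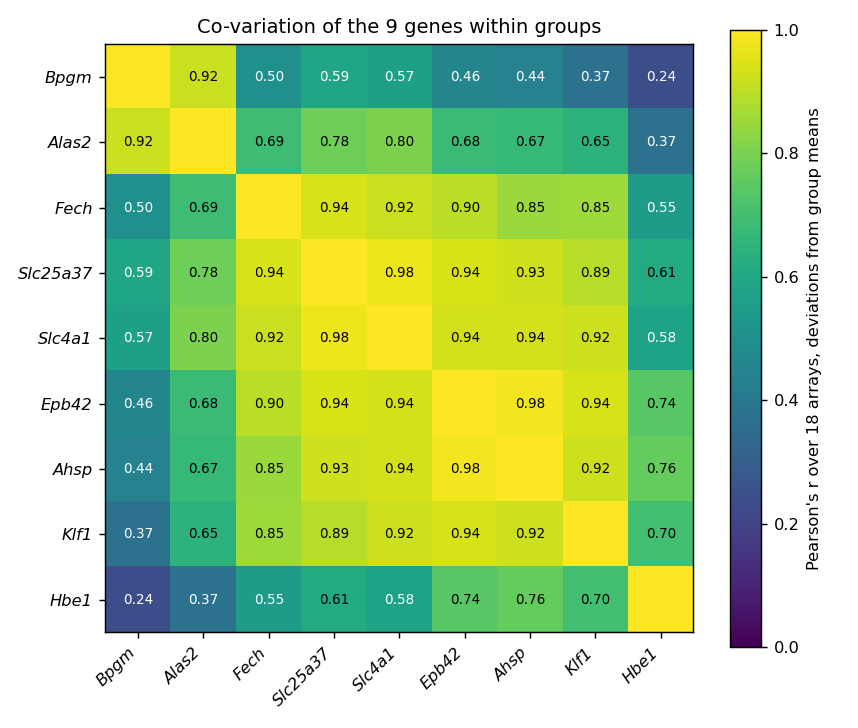
Pearson's r between the log2 ratios of each pair of the 9 genes over the 18 arrays, after subtracting group means. Both axes list the genes, and colour and number give r. By its brighter probe Bpgm is closest to Alas2 (0.92), the block from Fech to Klf1 lies between 0.85 and 0.98, and Hbe1 is lower throughout.

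The genes most like Alas2 and most like Slc4a1 over the 18 arrays were different ones. The 10 nearest to Alas2 of 13651 named genes were Hbb-b1 (r = 0.96), Hba-a1, Add2, Isca1, Adissp, Hbb, Hbb-bs, Rsad2, Bpgm (rank 9) and Hba-a3 (r = 0.92). The 10 nearest to Slc4a1 were Car2 (r = 0.98), Slc25a37 (rank 2), Tfdp2, Slc38a5, Glrx5, Hemgn, Emb, St3gal2, Tmie and Sptb (r = 0.96). No gene was on both lists. Slc4a1 ranked 57 for Alas2, and Alas2 ranked 262 for Slc4a1. The Alas2 list held 5 adult globin probes, and the Slc4a1 list held none but had Hemgn, a nuclear protein of red cell precursors, and Sptb, the beta chain of spectrin. These correlations rest on arrays that share slides and comparison RNA; without BN control 1 r was 0.95 for Hbb-b1 with Alas2 and 0.96 for Car2 with Slc4a1.

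Each gene was also set against Slc4a1 on the same array, so that whatever scales both genes alike on an array cancels; this comparison was chosen after the values were seen. Epb42 minus Slc4a1 was 0.29 to 1.04 on the 5 treated SD arrays, against -0.03 to 0.29 on the 5 SD controls, a difference of 0.48 with no overlap (exact permutation p = 0.00794, and 0.0556 without SD control 1 or SD control 2). Ahsp minus Slc4a1 differed by 1.32 and Klf1 minus Slc4a1 by 0.60 (exact permutation p = 0.0238 each), and Hbe1 minus Slc4a1 by 0.70 (exact permutation p = 0.0476, above 0.05 in 11 of 15 alternatives). Alas2 minus Slc4a1 differed by -0.36 and Bpgm minus Slc4a1 by -0.46 (exact permutation p = 0.0873 each). Ahsp's p was 0.0556 without SD procainamide 3, and Klf1's 0.0556 and 0.0635 without SD control 2 and SD control 4. None of the 16 such comparisons over both strains passed after Benjamini-Hochberg adjustment, where the lowest adjusted p was 0.127. In BN rats the unadjusted exact p ran from 0.2 to 1.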

How the data were processed

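Blood RNA of 18 rats' samples in 4 groups was measured on 2-colour Agilent arrays (62976 spots, 30367 probes). Per the file headers, Feature Extraction 10.7.1.1 wrote each deposited spot as median foreground and background intensity values in Cy5 and Cy3, with a log10 ratio of its processed signals. The deposited series table holds log2 ratios, which equal the scanner software's processed log10 ratios changed to base 2 on each array (slope 1, r at least 0.9995). The precision is limited by the number of arrays.

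The intensities were background-corrected by normexp with an offset of 50, each array's log2 ratios were loess-normalized, flagged spots were dropped, and repeated spots of a probe were averaged. Probes had to be well above background in Cy5 on at least 4 arrays, which left 26496. Groups were compared with limma 3.58.1 (R 4.3.3) in 1 fit over all 18 arrays, 2-sided, with Benjamini-Hochberg adjustment over these probes and a threshold of 0.05. Between strains the test used the log2 Cy5 level, taken after loess with Aquantile scaling. A gene is its brightest probe. Probes were named through RefSeq accessions, 18355 of them with a single symbol. On data simulated for the BN comparison with 26496 probes, 80 of 100 probes changed by 1 and 99 of 100 changed by 2 on the log2 scale were called.

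The members and lists were chosen with earlier results of these data known. Beside the 9 genes the text names, from each of 6 lists, up to 4 genes past the threshold with the smallest p in either response, and the 10 genes most correlated with Alas2 and with Slc4a1; markers of other blood cells are given as lists. Cd36, a marker, was named after its values were seen. The slides were 3: slide 1 held the 5 SD controls and SD procainamide 1 to 3, slide 2 the 4 BN controls and SD procainamide 4 and 5, and slide 3 the 4 treated BN arrays. Slide 2 was scanned on another day. The closing section gives the effect of other background corrections, normalizations, filters, model terms and omitted arrays. The LEW strain that the study's design names was not analysed here.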

Additional observations from a re-analysis of the deposited data

Results flagged for a closer look

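Bpgm in SD procainamide rats had 1 array far from the others: replicate 3 at a log2 ratio of -0.44, while the nearest of the other 4 was at -0.96. The gap took 0.723 of the group's whole range. Among the 36 groups of 4 or 5 arrays examined for the 9 genes it was the only such array, and chance alone marks about 1 group in 20.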

How the results depend on the processing

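Over the 9 genes, the 4 comparisons and all alternatives, 739 of 860 recomputed values kept their direction and side of the threshold, 71 changed sign, 34 lost a call and 16 gained one. Hbe1's strain difference stayed past the threshold in all 17 alternatives (-3.95 to -2.38). The BN count of 1 called gene, Klf1, became 0 with the processed log ratio, median centring, scan day, brightness, array weights, the replicate block, the series matrix, the BN arrays alone and without both arrays of control replicate 1, an alternative added after seeing the data; single arrays left out gave 0 to 1. The SD count of 0 became 2 with array weights, 3 with the SD arrays alone, 1 with slide as a block and 1 with the mean of all probes. The strain difference in response had 1 call with Cy5 alone and 1 with array weights, and 0 to 1 without single arrays. The 3 untreated calls became 1 with the 75th percentile, scan day, brightness or the replicate block, and 1 to 4 without single arrays.

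Same-numbered arrays correlated from -0.523 to 0.129 over 9 pairs. Arrays of different numbers were not set beside them, so whether the numbers pair the samples cannot be told. The replicate block is given here alone, and it called 231 named genes in SD rats, against 434. Of 3113 named genes called in BN rats, the count was 5029 with Cy5 alone, 115 with scan day, 413 with brightness and 1455 with the BN arrays alone. In SD rats it was 155 with scan day, 258 with brightness, 1465 with array weights, 889 with the SD arrays alone, and 135 to 550 without single arrays. Of 1457 for the strain difference in response it was 4303, 0 and 5 with Cy5 alone, scan day and brightness, and 932 to 1895 without single arrays. Of 5022 for the untreated strains it was 202 with scan day and 1393 with brightness.

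The remaining values are log2 differences of genes that changed sign under at least 1 alternative. In BN rats brightness gave Ahsp 0.42, Alas2 0.17, Bpgm 0.26 and Slc4a1 0.15; array weights gave Ahsp 1.23, Bpgm 0.14, Epb42 0.53, Fech 0.36, Slc25a37 0.23 and Slc4a1 0.43. Cy5 alone gave Alas2 0.0082, Hbe1 0.21 and Slc4a1 0.25, median centring gave Bpgm 0.052, and scan day gave Slc4a1 0.011 and Stat5b 0.0021. Without both arrays of control replicate 1, Ahsp was 1.00, Bpgm 0.11, Epb42 0.35, Fech 0.27, Slc25a37 0.16 and Slc4a1 0.43. Without single arrays Ahsp ran from -0.90 to 1.00, Bpgm from -0.24 to 0.28, Epb42 from -0.82 to 0.35, Fech from -0.51 to 0.27, Slc25a37 from -1.03 to 0.16 and Slc4a1 from -0.77 to 0.43; the top of each but Bpgm came without BN control 1. In SD rats Epb42 was -0.035 with median centring, -0.090 with Cy5 alone, -0.049 with brightness, -0.20 with array weights, -0.08 without control replicate 1 of both strains, and -0.22 to 0.22 without single arrays. For the strain difference in response, array weights gave Ahsp 0.71, Epb42 0.73 and Slc25a37 0.81, brightness gave Slc25a37 0.054, and the processed log ratio and the series matrix gave Slc4a1 -0.028 each. Without both arrays of control replicate 1 it was 0.34 for Ahsp, 0.43 for Epb42, 0.68 for Slc25a37 and 0.96 for Slc4a1. Without single arrays Ahsp ran from -1.79 to 0.11, Epb42 from -0.87 to 0.31, Slc25a37 from -0.63 to 0.56 and Slc4a1 from -0.33 to 0.87. For the untreated strains Ahsp was -0.028 with scan day, -0.10 with brightness and -0.52 without both arrays of control replicate 1, Bpgm was 0.066 with the 75th percentile and 0.044 with scan day, and Epb42 was -0.18 and Slc25a37 -0.78 without both arrays of control replicate 1. Without single arrays Ahsp ran from -0.37 to 0.70, Bpgm from -0.23 to 0.071, Epb42 from -0.057 to 1.12 and Slc25a37 from -0.69 to 0.26. The cause of these changes was not tested.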
